A study of Mus musculus with 6 samples.

Results

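Voltage-gated sodium and calcium channel genes were examined in the E18.5 cortex with and without Ybx1, an RNA-binding protein that reads 5-methylcytosine in mRNA. Genes were taken by symbol from a list of pore-forming and auxiliary subunits, and all 30 were found among the 17348 genes of the deposited table. They comprise 7 sodium channel alpha and 3 beta subunits, the sodium leak channel Nalcn, 3 fibroblast growth factor homologous factors, 8 calcium channel alpha1, 4 alpha2delta and 4 calcium channel beta subunits. RNA was sequenced from dissected cortices of embryos at E18.5, in 3 control (Ctrl) and 3 Ybx1 conditional knockout (cKO) libraries, and the question put to these genes was whether embryonic and later-onset subunits differ between the groups. The cKO embryos were Nestin-Cre, Ybx1 fl/fl, in which exons 3 to 8 of Ybx1 are removed by a Cre expressed in neural progenitors and so in their descendants, whereas blood, microglia and vessels do not arise from those cells. The Ctrl embryos are called WT in the labels, and the study's RNA sequencing methods also call them wild type littermates. Elsewhere the study defines its controls as Ybx1 fl/fl mice without Cre, so whether the Ctrl libraries carried floxed alleles cannot be told. The founder mice were made on C57BL/6J, and the libraries are described as biological replicates from independent experiments. How many embryos went into a library is not given in the sources used here. In bulk cortex, fewer cells that express a channel and less channel mRNA per cell cannot be told apart.

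A voltage-gated sodium channel is a single large alpha subunit that forms the pore, with small beta subunits that set its gating and surface level. Calcium channels add an alpha2delta subunit on the outer face and a beta subunit on the inner face of the pore-forming alpha1 subunit, and the alpha1 gene fixes whether the current is L-, P/Q-, N-, R- or T-type. In the rodent forebrain Scn3a and Scn2a carry much of the early sodium current, and Scn1a and Scn8a gain ground after birth. In the same period P/Q-type channels (Cacna1a) take over much of transmitter release from N-type channels (Cacna1b).

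Scn1a, Scn2a, Scn3a and Scn9a lie close together on chromosome 2 and resemble each other so closely that reads can be shared between them. Of all 50-base words in the longest coding transcript, 5.41% of those of Scn1a, 7.63% of Scn2a, 8.05% of Scn3a and 5.36% of Scn9a also occurred in another channel transcript, beside 0.053% for Scn8a. In the deposited table, estimated counts that were not whole numbers occurred for Scn1a and Scn2a in 3 libraries each and for Scn3a and Scn9a in 1 each (more than 0.005 from a whole number). They also occurred in all 6 libraries for Cacna1d, Cacnb1 and Fgf14, of whose 50-base words 0% were found in another channel transcript, so fractional counts did not follow this sharing alone. The read length is not given in the sources used here, so how reads of such words were divided could not be followed, and the levels of the 4 sodium channel genes carry that uncertainty.

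Summed over genes, the libraries held between 15091951 and 16885451 estimated counts, and 3 counts, taken as the floor of detection, corresponded to between 0.176 and 0.206 CPM (counts scaled to a common library total). These values cover counting error only. Ybx1 had 16184, 22152 and 13950 estimated counts in the Ctrl and 387, 394 and 390 in the cKO libraries, which checks the labels. One library stood apart: Ctrl replicate 2 held less of long transcripts and more of short ones. Relative to the other Ctrl libraries, the median gene was at 0.54 on the log2 scale in Ctrl replicate 2 when its transcript was at most 1000 bases long, and at -0.69 when it was over 10000 bases long. The 4 Y-linked genes tested were all lower in cKO, with at least 352 counts in every Ctrl and at most 22 in every cKO library, so the groups differed in Y-linked transcripts and sex cannot be told apart from genotype. Fold changes and ratios that leaving out Ctrl replicate 2 turned or moved by over 1.5 times are given with both values or as ranges over the libraries left out.

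**Figure D1:**
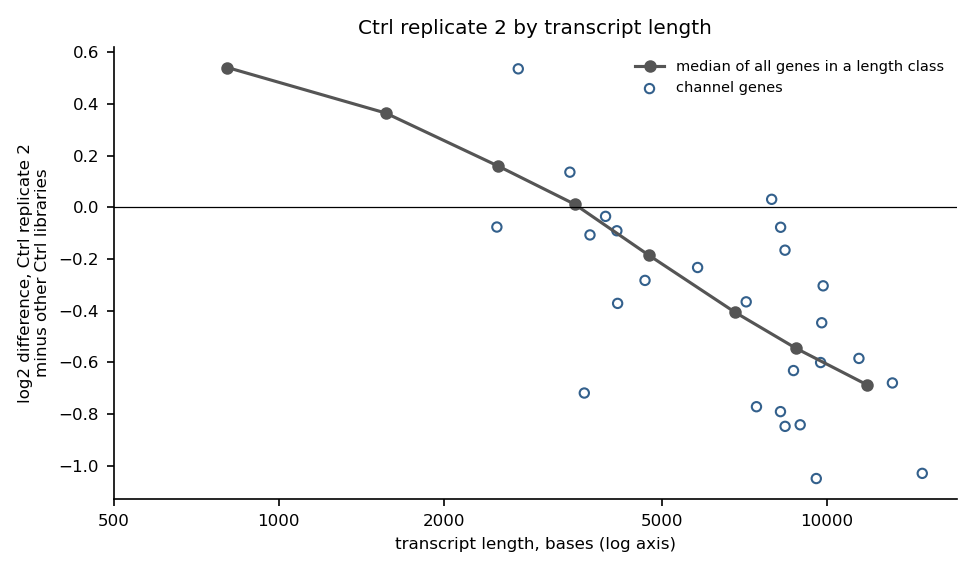
Difference in log2(CPM + 0.5) between Ctrl replicate 2 and the mean of Ctrl replicates 1 and 3 (vertical axis) against the length of the longest coding transcript in bases (horizontal log axis). Filled points joined by lines are medians of all genes in 8 length classes and fall from 0.54 to -0.69, and open circles are the 26 channel genes tested, most of which lie below 0.

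Channel mRNAs are long, with a median transcript length of 8075.5 bases over the 26 members tested beside 3316.5 bases over all 13570 genes tested. In 18 of the 26 (69.2%) the lowest of the 6 libraries was Ctrl replicate 2, beside 33.9% of all genes and 86.1% of the 851 genes with a transcript over 8000 bases. The members most reduced in it were Scn3a and Cacna1e, at -1.05 and -1.03 on the log2 scale relative to the other Ctrl libraries, whereas the short Cacnb3 was at 0.54.

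The levels of the channel genes spanned more than the difference between the groups. Per transcript length, in TPM (a transcript's share of all transcripts in its library, after division by length), the 5 most abundant were Cacnb3, Scn3b, Cacna2d1, Fgf13 and Cacna1h. Cacnb3, a beta subunit that brings alpha1 subunits to the membrane, had 219, 262 and 200 TPM in the Ctrl libraries and 256, 262 and 240 TPM in the cKO libraries. The sodium channel beta subunit Scn3b had 123, 82.1 and 119 TPM in Ctrl and 150, 108 and 112 TPM in cKO. In both genes the groups overlapped. Fgf13, a homologous factor that binds the sodium channel tail and also microtubules, was at 75.4 ± 7.41 TPM (SD, n = 3) in Ctrl and 75.7 ± 2.09 TPM (SD, n = 3) in cKO. The T-type pore Cacna1h had 50.6 ± 6.39 and 56.1 ± 2.70 TPM (SD, n = 3 each). Among members tested, the lowest level was that of Cacnb2, at 1.57 ± 0.199 TPM in Ctrl and 2.24 ± 0.107 TPM in cKO (SD, n = 3).

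**Figure D2:**
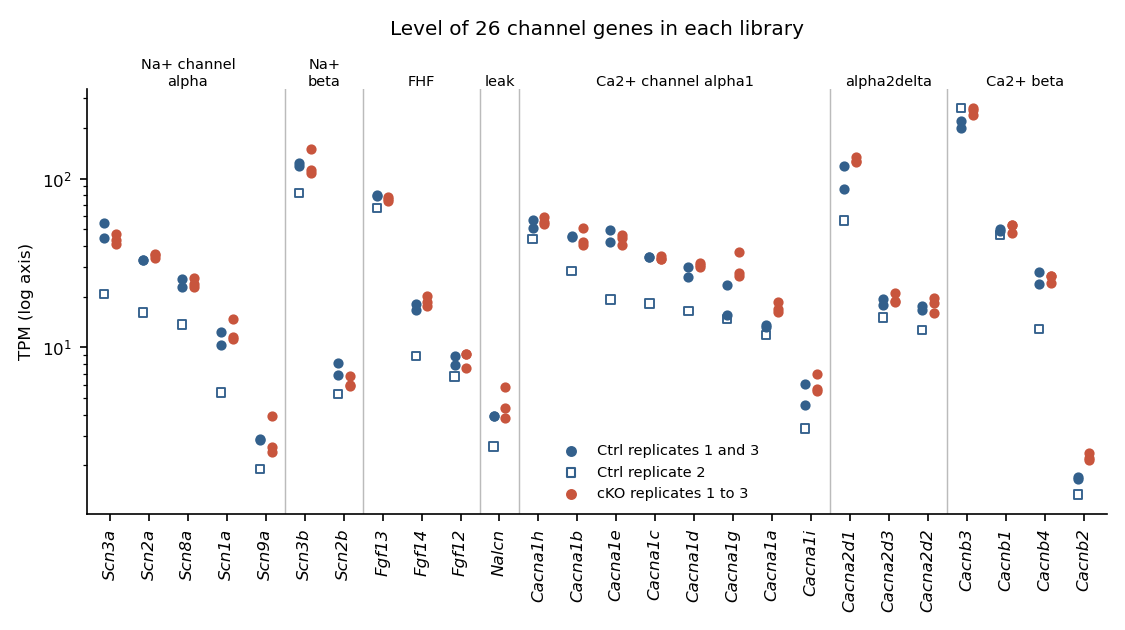
TPM (log axis) of the 26 channel genes that passed the filter on low counts, grouped by role and ordered by level within a role, with 1 point per library. Open squares, Ctrl replicate 2, are the lowest point for most long transcripts, and the other Ctrl libraries and the cKO libraries lie close to each other for most genes.

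The remaining 4 members did not pass the filter on low counts and were not tested. Scn4a, the alpha subunit of skeletal muscle, had between 0 and 2 counts in each library, Scn7a, a sodium-sensing relative found in glia and peripheral nerve, between 0 and 1, and Scn4b, a beta subunit of mature neurons, between 0 and 3. Cacna2d4, known from the retina, had 2 counts in each Ctrl library and 0 in each cKO library. As all of these values lie at or under the floor, no fold is given. A count of 0 allows up to 3 counts.

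No member passed an adjusted p-value of 0.05. Between the groups, 0 of 26 members passed in edgeR (quasi-likelihood, adjusted by Benjamini-Hochberg over all genes tested), beside 10 of 13570 genes (0.0737%), and 0 passed with DESeq2. At an unadjusted p-value under 0.05, 2 of the 26, Cacna1a and Cacna1g, passed. Both were also at least 1.2-fold higher in cKO, where 3.01% of all genes were called, and 0 members were called lower, where 3.3% of all genes were. Without cKO replicate 1 the number of members called was 0, and without cKO replicate 2 it was 1. The groups did not overlap in 5 members. Of these, 4 (Cacna1a, Cacna1g, Cacna2d1 and Cacnb2) were higher in every cKO library, beside 7.35% of all genes, and 1 (Fgf13) was lower, beside 6.93%. At 3 libraries against 3, no two-sided exact permutation p below 0.1 is possible.

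Most members had log2 fold changes above 0 with all libraries, but not when Ctrl replicate 2 was left out. The cause of this change was not tested. With all libraries, the fold change was above 0 in 22 of 26 members (84.6%), beside 50.6% of all genes, and the median log2 fold change was 0.11 beside 0.0027 for all genes. The 851 genes with a transcript over 8000 bases gave 79.2% and 0.12. Without Ctrl replicate 2, 11 of the same 26 members were above 0 and their median was -0.012, while the genes over 8000 bases had a median of -0.061. After length and GC content of the transcripts were corrected for, 15 of 26 were above 0, with a median of 0.033. At an unadjusted p-value under 0.05 and 1.2-fold, the calls without Ctrl replicate 2 were Cacna1a and Cacna1g, higher in cKO (4.26% of all genes), and Scn2b, lower in cKO (4.33% of all genes).

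**Figure D3:**
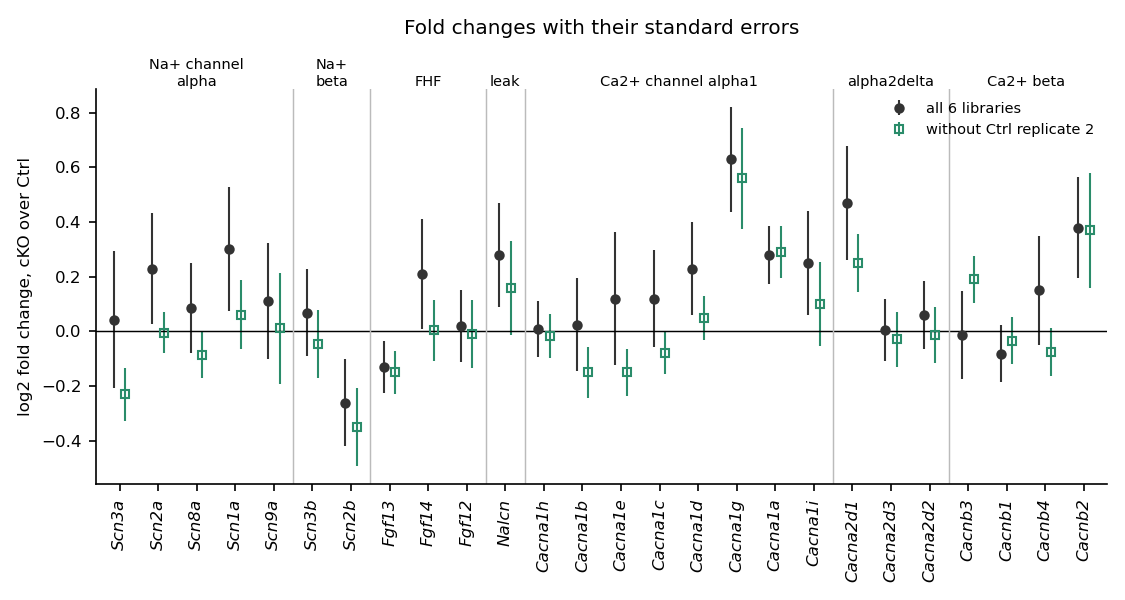
Log2 fold change of cKO over Ctrl for the 26 members tested, with bars of 1 standard error, from all 6 libraries (filled circles) and without Ctrl replicate 2 (open squares). Sodium channel alpha and calcium channel alpha1 genes all lie above 0 in the first fit and, apart from Cacna1a, lie lower in the second, while Cacna1g, Cacna1a and Cacnb2 stay at similar values.

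Among the sodium channel alpha subunits, 0 of 5 tested were called and their groups overlapped. Scn3a, the pore most typical of embryonic neurons, made up the largest share of alpha subunit TPM in every library, with 39.2% ± 3.36 in Ctrl and 37.1% ± 0.776 in cKO (SD, n = 3). It was followed by Scn2a with 27.5% ± 1.68 and 29.5% ± 1.80, by Scn8a with 21.2% ± 2.11 and 20.4% ± 0.252, and by Scn1a with 9.39% ± 0.253 and 10.5% ± 0.946 (SD, n = 3). Scn9a, best known from sensory neurons, made up 2.69% ± 0.566 and 2.48% ± 0.531. Scn1a was the only one of the 5 whose share did not overlap between the groups (two-sided exact permutation test, p = 0.1), and the shares of Scn1a, Scn2a, Scn3a and Scn9a carry the uncertainty of the shared reads.

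Normalized counts of these subunits showed the same library apart. Scn3a had 178, 93.9 and 214 CPM in Ctrl and 178, 157 and 165 CPM in cKO. Its log2 fold change of 0.043 (standard error, SE, 0.251, adjusted p = 0.983, edgeR) turned to -0.23 (SE 0.0958, adjusted p = 0.361, edgeR) without Ctrl replicate 2. Scn2a had 124, 69.0 and 124 CPM in Ctrl and 125, 125 and 121 CPM in cKO. Apart from Ctrl replicate 2, its libraries thus lay within 121 to 125 CPM, and its log2 fold change went from 0.23 (SE 0.203, adjusted p = 0.865, edgeR) to -0.0045 without that library. Scn8a, the pore of mature axon initial segments and nodes, had 112, 76.9 and 120 CPM in Ctrl and 118, 103 and 106 CPM in cKO. Scn1a, whose loss causes severe epilepsy in mice and people, had 37.9, 22.4 and 43.8 CPM in Ctrl and 50, 38.6 and 39.1 CPM in cKO. Scn1a had a log2 fold change of 0.30 (SE 0.227, adjusted p = 0.857, edgeR), or 0.062 without Ctrl replicate 2. Scn9a was the least abundant of the 5, between 9.43 and 12.6 CPM in Ctrl and between 9.71 and 15.6 CPM in cKO.

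Of the sodium channel beta subunits among the members, Scn3b supplied nearly all TPM, 94.1% ± 0.344 in Ctrl and 95.1% ± 0.458 in cKO, and Scn2b most of the rest, 5.90% ± 0.359 and 4.83% ± 0.483 (SD, n = 3). Neither share overlapped between the groups (two-sided exact permutation test, p = 0.1 for each). The shares are nearly complements, so they form a single comparison, and the Scn2b to Scn3b ratio given below rests on the same values. Scn2b, which raises the surface level of sodium channels in maturing axons, had 15.7, 11.6 and 12.9 CPM in Ctrl and 12.1, 10.8 and 10.6 CPM in cKO. The groups overlapped through Ctrl replicate 2, and the log2 fold change was -0.26 (SE 0.159, adjusted p = 0.823, edgeR), or -0.35 (SE 0.142, unadjusted p = 0.0309, adjusted p = 0.347, edgeR) without it. In normalized counts Scn3b had 215, 160 and 200 CPM in Ctrl and 242, 177 and 183 CPM in cKO, with overlapping groups. Nalcn, the leak channel that sets resting excitability, had 12.3, 9.31 and 12 CPM in Ctrl and 16.8, 11.3 and 12.6 CPM in cKO. Its log2 fold change of 0.28 (SE 0.191, adjusted p = 0.848, edgeR) was 0.16 without Ctrl replicate 2 and 0.097 without cKO replicate 1, the highest library.

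The 3 fibroblast growth factor homologous factors bind the sodium channel tail inside the cell and are not secreted. Fgf13 made up most of their TPM, with 77.5% ± 3.22 in Ctrl and 73.4% ± 1.71 in cKO, and Fgf14 the next largest part, 14.5% ± 3.27 and 18.2% ± 1.38 (SD, n = 3). Neither of these shares overlapped between the groups (two-sided exact permutation test, p = 0.1 for each). They are not independent of each other, and the Fgf14 to Fgf13 ratio given below rests on the same values. Fgf13, an X-linked gene, had 77.1, 72.3 and 75.5 CPM in Ctrl and 69.7, 69.0 and 67.4 CPM in cKO. Every cKO library was lower in CPM, with a log2 fold change of -0.13 (SE 0.0955, adjusted p = 0.857, edgeR), whereas on the TPM scale given above its groups overlapped. Fgf14, a factor of the axon initial segment, had 27.5, 17.7 and 31.7 CPM in Ctrl and 27.9, 28.4 and 32.6 CPM in cKO, and its log2 fold change of 0.21 (SE 0.2, adjusted p = 0.873, edgeR) was 0.0037 without Ctrl replicate 2. Fgf12 lay between 18.2 and 19.8 CPM in Ctrl and between 16.8 and 20.7 CPM in cKO.

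In the calcium channel alpha1 genes the T-type subunit Cacna1g had the largest difference of all members. T-type channels open near rest and support burst firing, and Cacna1g is abundant in thalamic neurons. The gene lies at chr11:94408391-94474198 on the minus strand of GRCm38. Cacna1g had 76.7, 54.5 and 48.8 CPM in Ctrl and 113, 83.8 and 81.5 CPM in cKO. All cKO libraries were above all Ctrl libraries, with cKO replicate 1 the highest, and the mean was 60.0 ± 14.7 CPM in Ctrl and 92.8 ± 17.5 CPM in cKO (SD, n = 3). This 1.55-fold difference corresponded to a log2 fold change of 0.63 (SE 0.192, unadjusted p = 0.00967, adjusted p = 0.512, edgeR). It was 0.56 without Ctrl replicate 2, and the adjusted p was 0.167 with length and GC content corrected for. The share of Cacna1g in alpha1 TPM was 8.46% ± 1.91 in Ctrl and 11.5% ± 1.46 in cKO, again without overlap (two-sided exact permutation test, p = 0.1).

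Cacna1a (chr8:84388440-84640246, plus strand), the pore of P/Q-type channels, differed less but more evenly. It had 48.7, 47.9 and 45.2 CPM in Ctrl and 62.0, 56.6 and 52.9 CPM in cKO, a 1.21-fold difference. Unlike most long channel mRNAs it was not lower in Ctrl replicate 2, where it lay 0.031 above the other Ctrl libraries on the log2 scale. Its log2 fold change was 0.28 (SE 0.106, unadjusted p = 0.0294, adjusted p = 0.667, edgeR), and 0.29 without Ctrl replicate 2. Across all alternatives it remained between 0.21 and 0.33, with adjusted p-values from 0.266 to 1.

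**Figure D4:**
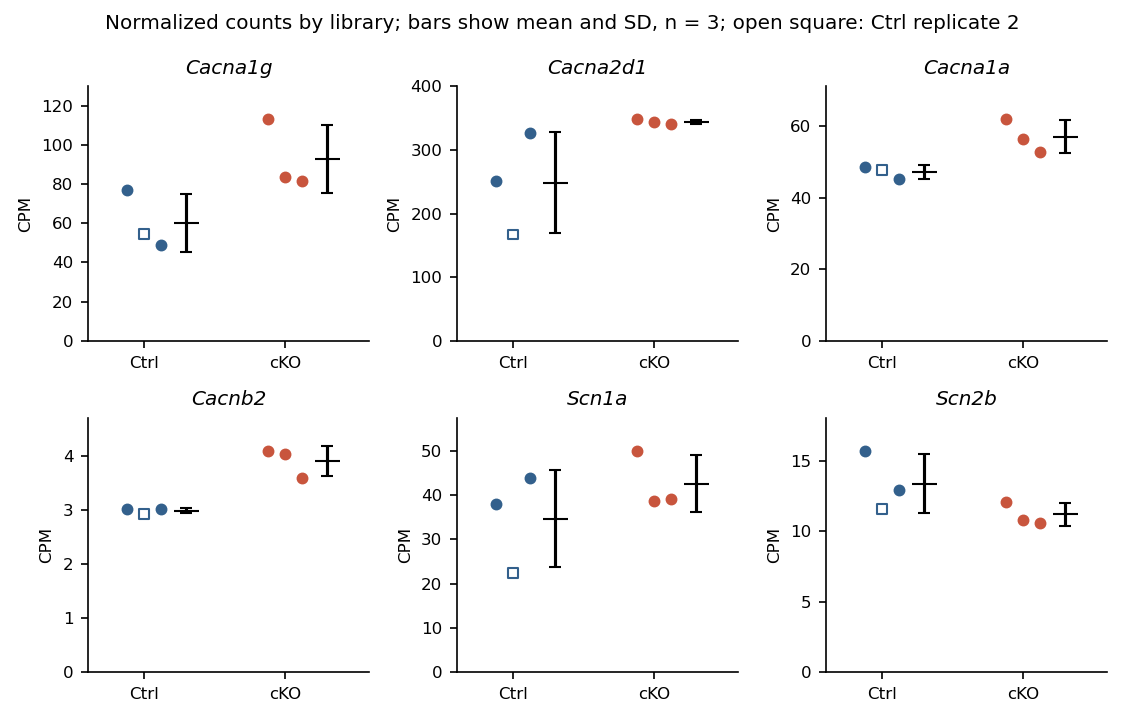
CPM (linear axis from 0) of Cacna1g, Cacna2d1, Cacna1a, Cacnb2, Scn1a and Scn2b in each library, with the mean and SD of each group (n = 3) beside the points and Ctrl replicate 2 as an open square. Cacna1g, Cacna2d1, Cacna1a and Cacnb2 have all cKO libraries above all Ctrl libraries, whereas Scn1a and Scn2b overlap.

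The other alpha1 genes overlapped between the groups. Cacna1h, the other abundant T-type pore, was the most even, at 189 ± 8.59 CPM in Ctrl and 190 ± 9.80 CPM in cKO (SD, n = 3), a log2 fold change of 0.0086 with an SE of 0.102, or -0.017 without Ctrl replicate 2. Cacna1i, the third T-type gene, had 26.5, 16.3 and 18.9 CPM in Ctrl and 28.0, 23.0 and 22.2 CPM in cKO. Its log2 fold change of 0.25 (SE 0.191, adjusted p = 0.857, edgeR) was 0.1 without Ctrl replicate 2. The N-type pore Cacna1b had 164, 103 and 150 CPM in Ctrl and 156, 138 and 131 CPM in cKO. Cacna1e, which carries R-type current and has the longest transcript of the members at 14921 bases, had 287, 148 and 321 CPM in Ctrl and 288, 257 and 277 CPM in cKO, so that Ctrl replicate 2 alone was far below the rest. The L-type genes Cacna1c and Cacna1d, which couple activity to transcription, had log2 fold changes of 0.12 (SE 0.176) and 0.23 (SE 0.169), or -0.079 and 0.049 without Ctrl replicate 2. By class, T-type genes held 34.6% ± 4.59 of alpha1 TPM in Ctrl and 35.2% ± 0.694 in cKO, and L-type genes 24.3% ± 1.86 and 24.7% ± 0.825 (SD, n = 3), with overlapping groups for both.

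Cacna2d1 (chr5:15934691-16374511, plus strand), the alpha2delta subunit that binds gabapentin and promotes synapse formation, was the most abundant of its family, with 71.6% ± 4.62 of alpha2delta TPM in Ctrl and 77.6% ± 0.779 in cKO (SD, n = 3). It had 251, 167 and 327 CPM in Ctrl and 348, 344 and 340 CPM in cKO. The cKO libraries lay close together above all Ctrl libraries, which were widely spread. The log2 fold change was 0.47 (SE 0.208, unadjusted p = 0.0504, adjusted p = 0.754, edgeR), a 1.39-fold difference, and 0.25 (SE 0.106, adjusted p = 0.369, edgeR) without Ctrl replicate 2. With length and GC content corrected for, Cacna2d1 was the only member with an adjusted p-value under 0.05 (log2 fold change 0.38, adjusted p = 0.0452, edgeR), in a fit that called 182 genes (1.34%). Cacna2d2 and Cacna2d3 differed little between groups, with log2 fold changes of 0.061 (SE 0.124) and 0.0067 (SE 0.113), or -0.014 and -0.029 without Ctrl replicate 2.

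Among the calcium channel beta subunits, Cacnb3 accounted for 75.7% ± 4.89 of TPM in Ctrl and 76.1% ± 1.36 in cKO, followed by Cacnb1 and Cacnb4 (SD, n = 3). The scarce Cacnb2, known best from heart muscle, had 3.01, 2.93 and 3.01 CPM in Ctrl and 4.09, 4.03 and 3.58 CPM in cKO. Its groups did not overlap, at 48, 50 and 44 counts in Ctrl and 66, 64 and 56 counts in cKO, and the log2 fold change was 0.38 (SE 0.185, unadjusted p = 0.0676, adjusted p = 0.789, edgeR). Without Ctrl replicate 2 it was 0.37, so this difference did not rest on that library. Cacnb3 had 231, 314 and 203 CPM in Ctrl and 250, 257 and 234 CPM in cKO, with the highest value in Ctrl replicate 2. Cacnb4, the subunit altered in lethargic mice, had 81.9, 50.1 and 92.6 CPM in Ctrl and 85.3, 78.0 and 85.2 CPM in cKO. Cacnb1 had a log2 fold change of -0.081 (SE 0.105), or -0.034 without Ctrl replicate 2.

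Embryonic subunits (Scn2a, Scn3a, Scn3b, Cacna1b, Cacnb3 and Fgf13) were compared with later-onset subunits (Scn1a, Scn8a, Scn2b, Scn4b, Cacna1a, Cacnb4 and Fgf14). Of the embryonic subunits, 6 of 6 were tested and 0 were called at an unadjusted p-value under 0.05 and 1.2-fold. Of the later-onset subunits, 6 of 7 were tested and 1, Cacna1a, was called higher. Over all genes 3.01% were called higher and 3.3% lower, and 1 call among so few members cannot be set apart from these shares. The median log2 fold change was 0.034 for the embryonic and 0.18 for the later-onset subunits, beside 0.0027 for all genes. Without Ctrl replicate 2 these medians were -0.098 and -0.035, and with length and GC content corrected for -0.013 and 0.12. The difference between the lists was not tested as such.

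The ratio of a later-onset to an embryonic subunit within a library was taken for 6 pairs of the same family, on the TPM scale. In every pair and every library the embryonic subunit was the more abundant. The Scn1a to Scn3a ratio was 0.234, 0.262 and 0.227 in Ctrl and 0.312, 0.273 and 0.265 in cKO, with all cKO libraries higher. The Scn2b to Scn3b ratio was 0.0656, 0.0645 and 0.0581 in Ctrl and 0.0448, 0.0551 and 0.0525 in cKO, with all cKO libraries lower. For Fgf14 to Fgf13 the ratio was 0.210, 0.133 and 0.223 in Ctrl and 0.226, 0.243 and 0.274 in cKO, also without overlap. These 3 ratios differed by 0.23, -0.31 and 0.43 on the log2 scale (two-sided exact permutation test, p = 0.1 for each). Without Ctrl replicate 2 they differed by 0.30, -0.29 and 0.19. The later-onset member was relatively higher in cKO in 2 of these ratios and lower in 1. At 3 libraries against 3, every ratio without overlap reaches p = 0.1 in this permutation test, its smallest value. Among single genes, 7.35% were higher and 6.93% lower in cKO without overlap. Taken on estimated counts in place of TPM, Scn1a to Scn3a and Fgf14 to Fgf13 overlapped between the groups, with differences of 0.218 and 0.373 (exact permutation test, p = 0.2 and 0.3), whereas Scn2b to Scn3b did not (-0.314, p = 0.1). The other 3 pairs overlapped between the groups. Scn8a to Scn2a was 0.773 ± 0.0771 in Ctrl and 0.693 ± 0.0446 in cKO, Cacna1a to Cacna1b 0.336 ± 0.0693 and 0.388 ± 0.0198, and Cacnb4 to Cacnb3 0.099 ± 0.0458 and 0.102 ± 0.00967 (SD, n = 3). Exact permutation p-values for these were 0.3, 0.4 and 0.9. On the log2 scale they differed by -0.15, 0.23 and 0.17, and without Ctrl replicate 2 by -0.083, 0.39 and -0.27.

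**Figure D5:**
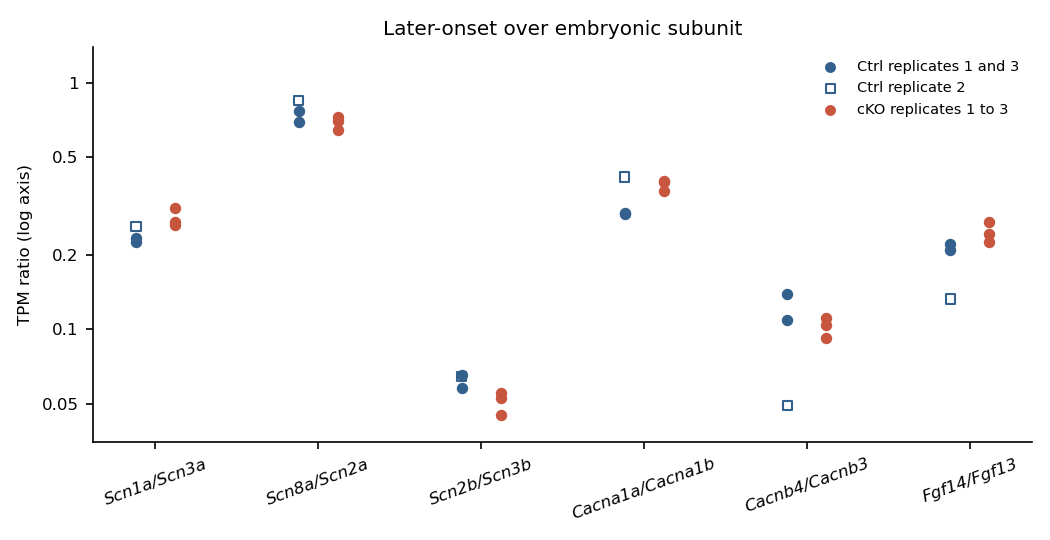
TPM ratio (log axis) of the later-onset to the embryonic subunit for 6 pairs, with 1 point per library. All ratios are below 1, and on this scale the groups do not overlap for Scn1a/Scn3a, Scn2b/Scn3b and Fgf14/Fgf13, the last of which is lowest in Ctrl replicate 2.

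Genes whose products assemble with, anchor or regulate these channels were read from the same fit. Of 33 such genes found, 32 were tested, 0 passed the adjusted threshold, and 3 were higher and 0 lower in cKO at an unadjusted p-value under 0.05 and 1.2-fold, beside 3.01% and 3.3% of all genes. The median log2 fold change was -0.0085, or 0.035 without Ctrl replicate 2. Cntn1, a contactin that binds sodium channels at the axon surface, had 71.3, 52.2 and 67.1 CPM in Ctrl and 98.3, 85.0 and 87.2 CPM in cKO. Its log2 fold change was 0.51 (SE 0.137, unadjusted p = 0.00507, adjusted p = 0.465, edgeR), and 0.38 without Ctrl replicate 2. Unc80, a large scaffold of the Nalcn complex, had 10.2, 7.20 and 12 CPM in Ctrl and 18.7, 14.5 and 13.7 CPM in cKO, a log2 fold change of 0.68 (SE 0.211, unadjusted p = 0.0102, adjusted p = 0.520, edgeR). Stac2, which slows the inactivation of L-type channels, had 36.4, 39.9 and 32.0 CPM in Ctrl and 45.6, 42.7 and 43.0 CPM in cKO, with a log2 fold change of 0.28 (SE 0.116, unadjusted p = 0.0407, adjusted p = 0.727, edgeR). Without Ctrl replicate 2 the log2 fold changes of Unc80 and Stac2 were 0.50 and 0.35. Every cKO library was above every Ctrl library in 5 of the 32 genes, these 3 with Cacng5 and Nrcam, beside 7.35% of all genes. Without Ctrl replicate 2 the log2 fold change of Nrcam went from 0.26 to 0.057, and that of Cacng5 from 0.3 to 0.2. The calmodulin genes Calm2 and Calm3, whose products are calcium sensors of both channel families, were the most abundant of the list per length. Calm2 was at 1189 ± 75.7 TPM in Ctrl and 1406 ± 20.5 TPM in cKO, and Calm3 at 617.1 ± 56.8 and 596 ± 26.3 TPM (SD, n = 3), with log2 fold changes in CPM of 0.088 (SE 0.103) and -0.21 (SE 0.14), or 0.13 and -0.078 without Ctrl replicate 2. The axon initial segment anchor Ank3 and its relative Ank2 had log2 fold changes of 0.26 (SE 0.243) and 0.049 (SE 0.222), and of -0.0013 and -0.20 (unadjusted p = 0.0277, adjusted p = 0.335, edgeR) without Ctrl replicate 2.

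Markers of cell types were summed in TPM for each library to see what moved beside the channel genes. Cortical excitatory neuron markers (7 of 7 found) summed to between 1710 and 2420 TPM in Ctrl and between 1950 and 2210 TPM in cKO, and markers of maturing neurons (8 of 8) to between 1880 and 2290 and between 2210 and 2320 TPM, which fits the labelled tissue. Radial glia markers lay between 472 and 571 TPM in Ctrl and 553 and 593 TPM in cKO, and intermediate progenitor markers between 155 and 202 and between 178 and 225 TPM. In 4 lists the sums did not overlap and were higher in cKO, and in the other lists they overlapped. Among single genes, 7.35% of all genes tested were higher in cKO without overlap. Whether the sums differed was not tested. Interneuron markers (7 of 7) summed to between 874 and 939 TPM in Ctrl and 971 and 1410 TPM in cKO, and endothelial and pericyte markers (6 of 6) to between 209 and 244 and between 248 and 303 TPM. Microglia markers (5 of 5) lay between 42.8 and 43.9 TPM in Ctrl and 51.1 and 53.2 TPM in cKO, and meningeal fibroblast markers (4 of 4) between 2.69 and 3.4 and between 4.65 and 5.52 TPM. A sum is carried by its most abundant genes, and by log2 fold change only 4 interneuron markers were higher while 3 were lower. Endothelial and pericyte markers were higher in 5 and lower in 1, and microglia markers in 4 and 1. Of the fibroblast markers 2 were tested, and 2 were higher. No marker gene passed the adjusted threshold in edgeR. At an unadjusted p-value under 0.05 and 1.2-fold, Slc17a7, Pax6, Aqp4, Cdh5, Pdgfrb and Prph were called higher in cKO. Of Syt1 and Nefl, 1 was called higher and 1 lower. Other members of these lists went the other way. By log2 fold change, 2 of 7 excitatory neuron markers tested were higher and 5 lower, and radial glia markers were 3 and 3 of 6. Astrocyte markers were 1 and 2 of 3, peripheral nerve markers 1 and 1 of 2, and maturing neuron markers 4 and 4 of 8. Over all genes 3.01% were called higher and 3.3% lower. The part of these cells in the differences of Cacna1g, Cacna1a, Cacna2d1 and Cacnb2 was not tested. Striatal, astrocyte, oligodendrocyte precursor and erythroid sums overlapped, at 94.7 to 116, 16 to 28.1, 28.8 to 39.6 and 5060 to 5570 TPM in Ctrl and 116 to 142, 17.3 to 26.1, 28.7 to 46.1 and 5370 to 6370 TPM in cKO. Markers of thalamus, which express Cacna1g and Cacna1i, summed to at most 3.36 TPM in Ctrl and 4.63 TPM in cKO, with Gbx2 at or under 3 counts in every library. Those of choroid plexus, skeletal muscle and peripheral nerve reached at most 1.11, 2.21 and 7.75 TPM in Ctrl and 0.84, 2.05 and 9.7 TPM in cKO, with Ttr, Folr1, Myog and Ckm at or under the floor in every library.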

How the data were processed

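RNA of 6 cortical libraries at E18.5 was analysed, 3 Ctrl and 3 cKO, grouped and numbered from the submitters' labels. The authors deposited estimated counts, TPM and FPKM values per gene and library, with 6 columns of group means that were not used. HISAT2 2.2.1, Bowtie2 2.4.5, RSEM 1.3.1 and the builds GRCm38 and mm10 are named in the submitters' processing notes, without their roles. The annotation, strandedness and read length are not given in the sources used here, so antisense reads cannot be told from those of a channel gene.

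Estimated counts were rounded, filtered with filterByExpr, scaled by TMM and tested in R 4.3.3 by the quasi-likelihood method of edgeR 4.0.16, with p-values adjusted over all genes tested (Benjamini-Hochberg). CPM are on the TMM-scaled total. TPM served for levels, shares and ratios, and the authors' FPKM values for an alternative. A looser call was an unadjusted p-value under 0.05 with at least a 1.2-fold change. Permutation tests were exact and two-sided (scipy 1.17.1). Transcript length and GC content came from the longest coding transcript in GENCODE M21, found for 16780 genes (96.7%) and all 30 members, and the correction removed a smooth trend on both (mgcv 1.9.3) from each library. The fits were also run on simulated counts with known changes and a length trend in a single library. That trend was not matched to Ctrl replicate 2, so the simulation does not show how well the correction works on these data.

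The members and lists were chosen with earlier results of these data known. Libraries of a group were not duplicates, with a chi-square per degree of freedom of 3.41 to 62.4. Named with the value in every library were members called at the unadjusted threshold, the 5 largest differences, the most abundant and both genes of each ratio, and other members are given by values or ranges. Alternatives were DESeq2 1.42.0, RLE size factors, other filters, the replicate block, X and Y genes left out, the length and GC correction and each library left out. Figures were drawn with matplotlib 3.10.9. Shared stretches of channel sequence and some associated genes are not reported here.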

Additional observations from a re-analysis of the deposited data

How the results depend on the processing

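The 26 members tested were refitted under 14 alternatives, which gave 363 values. Of these, 316 kept the direction and the side of the adjusted threshold, 45 changed direction and 2 passed the threshold. Cacna1g, Cacna1a, Cacna2d1 and Cacnb2 were among the 12 members that never changed direction. No member passed the adjusted threshold in all 6 libraries with edgeR or DESeq2, or with any library left out (0 to 0). With length and GC content corrected for, 1 passed (Cacna2d1), and with the replicate block added to that correction 1 passed (Cacna1g, adjusted p = 0.0268). Over all genes the adjusted count of 10 became 6 without X and Y genes, 182 with the length and GC correction, 181 with the block added to it, 99 with DESeq2 and 8 to 122 with a library left out, the highest without Ctrl replicate 2. At an unadjusted p-value under 0.05 and 1.2-fold, leaving out a library gave 490 (without cKO replicate 3) to 1894 (without Ctrl replicate 3) genes beside 857. It gave 0 (without cKO replicate 1) to 3 members beside 2, with 1 without cKO replicate 2, and 1 (without cKO replicate 1) to 6 (without Ctrl replicate 3) associated genes beside 3. With the correction and the block there were 5 associated genes. The cause of these changes was not tested.

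Same-numbered libraries had deviation correlations of 0.099, 0.0847 and 0.262, not all of them over 0.1, and the labels do not tie a number to a batch, so they were not treated as pairs. Whether they share a batch cannot be told. The replicate block alone gave 11 genes past the adjusted threshold and 3 members past the unadjusted one, and turned Cacnb3 to 0.0106 on the log2 scale.

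Log2 fold changes turned with the length and GC correction, alone and with the block, for Scn3a (-0.0576, -0.0522), Scn8a (-0.0232, -0.0272), Scn9a (-0.062, -0.0774), Cacna1b (-0.0492, -0.0522), Cacna1c (-0.00633, -0.00759), Cacna1h (-0.0509, -0.0484), Cacna2d3 (-0.0157, -0.0167), Cacnb3 (0.0863, 0.0867) and Fgf12 (-0.057, -0.0577). Without the filter on low counts Cacna1h was at -0.006 and Cacna2d3 at -0.00935. With a library left out, values ranged from -0.0045 to 0.36 for Scn2a, -0.23 to 0.29 for Scn3a, -0.0843 to 0.21 for Scn8a, -0.13 to 0.24 for Scn9a, -0.0866 to 0.16 for Scn3b, -0.15 to 0.16 for Cacna1b, -0.0789 to 0.24 for Cacna1c, -0.15 to 0.33 for Cacna1e, -0.0329 to 0.046 for Cacna1h, -0.0136 to 0.14 for Cacna2d2, -0.0451 to 0.0384 for Cacna2d3, -0.14 to 0.19 for Cacnb3, -0.0742 to 0.33 for Cacnb4 and -0.0341 to 0.11 for Fgf12. Among the ratios, Cacnb4 to Cacnb3 alone changed direction, at -0.0429 with the correction and -0.269 to 0.482 with a library left out.

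With 3 libraries a group, of which 1 stands apart by transcript length, differences of the size seen in most channel genes lie within the spread between libraries.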
